A study of Mus musculus with 80 samples.

Results

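The urea cycle and the liver-type glutaminase that feeds it were followed here through 8 genes, measured by RNA sequencing in mouse liver. The 8 genes, Nags, Cps1, Gls2, Slc25a15, Otc, Ass1, Asl and Arg1, were taken by symbol from the deposited gene count tables. All 8 were among the 18877 genes of the DEHP table and the 17672 genes of the DCA table, and all 8 passed the low-count filter in every set of libraries. The mice were male B6C3F1, a hybrid strain used in toxicology, and were 4 weeks old at the start. Di(2-ethylhexyl) phthalate (DEHP), a plasticiser that activates the nuclear receptor PPAR alpha in rodent liver, was mixed into the feed at 1500, 3000 or 6000 ppm over 7 days, and the controls (0 ppm) received none, with 4 mice per dose. Dichloroacetic acid (DCA), which forms in chlorinated water and inhibits pyruvate dehydrogenase kinase, was dosed at 1, 2 or 3.5 g/L through the drinking water, and its own controls (0 g/L) received none, with 6 mice per dose. How long the DCA animals were exposed is not given in the labels used here. From each mouse both a formalin-fixed paraffin-embedded (FFPE) and a frozen piece of liver were sequenced, which gave 80 libraries. DEHP livers were collected in 2013 and DCA livers in 1994.

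The urea cycle turns ammonia and the amino group of aspartate into urea, mainly in periportal hepatocytes. GLS2 releases ammonia from glutamine inside the mitochondria. NAGS makes N-acetylglutamate, the obligate activator of CPS1, and CPS1 joins ammonia and bicarbonate to carbamoyl phosphate in the step that commits nitrogen to the cycle. OTC then makes citrulline from ornithine, which SLC25A15 carries into the mitochondria in exchange for citrulline. In the cytosol ASS1 joins citrulline to aspartate, ASL splits the product into arginine and fumarate, and ARG1 splits arginine into urea and ornithine.

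The members lie on 7 chromosomes and show no shared cluster. In GRCm38 coordinates (GENCODE M21), Cps1 lies at chr1:67123026-67231259, Otc at chrX:10252305-10321024, Ass1 at chr2:31470207-31520672 and Asl at chr5:130011258-130029247. Arg1 lies at chr10:24915221-24927484, Nags at chr11:102145513-102149477, Gls2 at chr10:128194457-128210004 and Slc25a15 at chr8:22375551-22398597. Asl, Arg1 and Slc25a15 are on the minus strand and the other members on the plus strand. Gls2 overlaps Spryd4 on the opposite strand, so the 2 genes' reads could be mixed if strand was not used in counting, which the sources used here do not state. Promoter windows of 300 bases (250 before the gene start and 50 after it) were matched in the RefSeq table of GRCm38.p6 for 4 of the 8 members: Ass1, Otc, Nags and Slc25a15. Cps1, Asl, Arg1 and Gls2 are named only. Slc25a15 had 2 windows for 2 listed gene starts, and the one farther upstream is printed. The windows of Otc and Ass1, lower at the top dose of both chemicals in frozen liver, and of Slc25a15, higher with DCA, are printed to show how unlike the DNA in front of these genes is. Each is given 5′ to 3′ on the gene's strand, with the GC box in capitals.
Otc promoter (GRCm38.p6, chrX:10252055-10252354, plus strand): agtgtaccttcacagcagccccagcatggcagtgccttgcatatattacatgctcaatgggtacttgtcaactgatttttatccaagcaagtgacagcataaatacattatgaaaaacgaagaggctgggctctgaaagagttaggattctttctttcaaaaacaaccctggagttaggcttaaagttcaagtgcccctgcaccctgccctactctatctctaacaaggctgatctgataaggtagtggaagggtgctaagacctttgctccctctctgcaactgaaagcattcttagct
Ass1 promoter (GRCm38.p6, chr2:31470020-31470319, plus strand): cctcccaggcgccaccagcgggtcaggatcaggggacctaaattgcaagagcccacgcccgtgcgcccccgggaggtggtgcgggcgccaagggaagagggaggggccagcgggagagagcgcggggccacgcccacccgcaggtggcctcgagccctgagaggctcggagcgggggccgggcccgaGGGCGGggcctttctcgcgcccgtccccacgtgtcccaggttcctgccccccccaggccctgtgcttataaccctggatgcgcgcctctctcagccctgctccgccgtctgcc
Slc25a15 promoter (GRCm38.p6, chr8:22398572-22398871, minus strand): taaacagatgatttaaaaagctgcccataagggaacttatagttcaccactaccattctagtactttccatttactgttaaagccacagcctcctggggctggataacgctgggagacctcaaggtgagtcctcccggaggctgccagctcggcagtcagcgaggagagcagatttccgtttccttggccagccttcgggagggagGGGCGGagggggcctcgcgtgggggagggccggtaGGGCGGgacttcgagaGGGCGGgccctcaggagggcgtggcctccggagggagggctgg
G and C made up 44.3% of the Otc window, 74% of the Ass1 window and 60.7% of the Slc25a15 window, against a median of 52.7% over 32851 promoter windows. The Otc window held 1 CG dinucleotide, the Ass1 window 27 and the Slc25a15 window 15, against a median of 7. The second Slc25a15 window (chr8:22398228-22398527) had 79% G and C, 51 CG dinucleotides and 5 GC boxes. The GC box GGGCGG was searched on both strands and had 1 match in Ass1, 3 in Slc25a15 and none in Otc. It occurs in 35.7% of all windows. The C/EBP core TTGCNNAA, found in 10.8% of all windows, the TATA box TATAAA, found in 13.6%, and the nuclear receptor half-site AGGTCA, found in 16.3%, had no match in these 3 windows. The cAMP response half-site TGACG, found in 20.8% of windows, and the CCAAT box CCAAT, found in 37.4%, had no match there either. With matches to the GC box only, no 2 motifs overlapped in the printed windows. The window of Nags, not printed, held 2 GC boxes, 1 nuclear receptor half-site and 1 cAMP response half-site. These counts describe letters in these windows only.

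Depth differed widely between the 4 sets. Total counts per library were 11673034 to 18866106 in DEHP FFPE liver and 16582951 to 29550616 in DEHP frozen liver. They were 109292 to 8434613 in DCA FFPE liver and 3067666 to 16890024 in DCA frozen liver. The ribosomal RNA precursor Rn45s took a median of 56.5% of the counts in DCA FFPE libraries (4.89% to 84.2%), against 2.90% in DEHP FFPE, 0.449% in DCA frozen and 0.140% in DEHP frozen libraries. The 8 genes together took 0.486% ± 0.064 of all counts in frozen liver at 6000 ppm DEHP, against 0.757% ± 0.118 in its controls (SD, n = 4 each). They took 1.02% ± 0.079 at 3.5 g/L DCA, against 1.23% ± 0.106 in its controls (SD, n = 6 each). Such shares, like all values from bulk tissue, cannot tell fewer cells of a type from less RNA per cell.

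The genes covered a wide range of levels per transcript length. On the authors' FPKM scale, Cps1 stood first in frozen livers of the DEHP controls at 1449.8 ± 161 FPKM and Ass1 next at 892 ± 223 FPKM (SD, n = 4). Arg1 followed at 432 ± 41.3 FPKM, and Otc at 195 ± 19.2 FPKM. Asl averaged 106 ± 3.88, Slc25a15 87.0 ± 15.4 and Gls2 75.3 ± 8.39 FPKM, and the ranges of Asl and Slc25a15, and of Slc25a15 and Gls2, overlapped. Nags, whose product makes the activator of CPS1, was last at 18.5 ± 1.74 FPKM. No other neighbours in this order overlapped. In frozen livers of the DCA controls Ass1 came first at 1654 ± 248 FPKM, with Cps1 at 1438 ± 132 FPKM (SD, n = 6), and their ranges overlapped. Arg1 averaged 665 ± 94.1 FPKM there. Otc at 164 ± 6.52, Asl at 158 ± 14.9 and Slc25a15 at 131 ± 9.55 FPKM followed, with the ranges of Otc and Asl, and of Asl and Slc25a15, overlapping, while Gls2 at 91.5 ± 7.46 and Nags at 25.97 ± 3.31 FPKM stood apart below them. The DEHP and DCA tables were normalised separately, so levels are not compared between them.

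**Figure D1:**
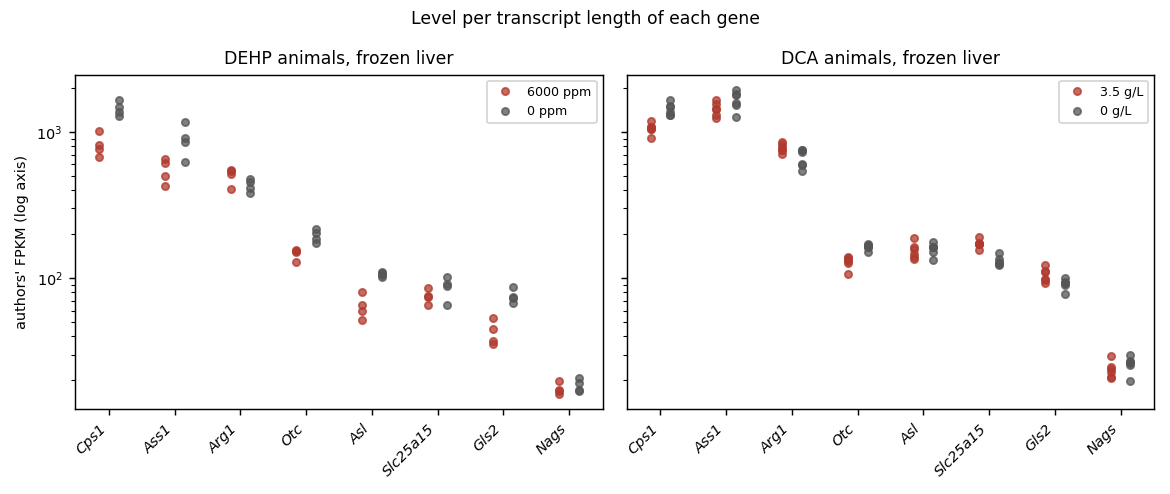
Level of each gene in frozen liver, in the authors' FPKM on a log axis, with 1 point per library, at the top dose and in controls of the DEHP animals (left, n = 4 per group) and the DCA animals (right, n = 6 per group). Cps1, Ass1 and Arg1 lie highest and Nags lowest in both panels.

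In frozen liver genes of the ammonia-releasing, mitochondrial and cytosolic steps were lower in DEHP animals than in controls. At 6000 ppm 5 of the 8 genes were lower than in controls: Cps1, Gls2, Otc, Ass1 and Asl. None was higher, and Arg1, Nags and Slc25a15 were not called. Sequencing run was spread unevenly over the doses. With run as a term, given below, Cps1 and Gls2 stayed called and Otc, Ass1 and Asl did not. A gene was called when its adjusted p from edgeR's quasi-likelihood test (Benjamini-Hochberg adjustment over all 13802 genes tested) was under 0.05; by that rule 4.72% of all genes were called lower at 6000 ppm. The median log2 fold change was -0.62 over the 8 genes and -0.03 over all genes.

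Cps1, the entry step, read lower than controls at every dose, and its 1500 and 3000 ppm ranges overlapped. On the TMM-scaled count scale that allows for library depth (CPM), its frozen libraries read 4019, 4731, 5302 and 3899.8 in controls, 3193, 3315, 2848 and 3264 at 1500 ppm, 2936, 3163, 2782 and 3387 at 3000 ppm and 2431, 2204, 1893 and 3013 at 6000 ppm. Every treated library lay below every control, and the highest at 6000 ppm lay within the range at 3000 ppm. The difference from controls was -0.51 ± 0.15 (SE) on the log2 scale at 1500 ppm, with an adjusted p of 0.0515, so it just missed the threshold. It was -0.55 ± 0.15 (SE) on the log2 scale with an adjusted p of 0.021 at 3000 ppm. At 6000 ppm it was -0.91 ± 0.15 (SE) on the log2 scale with an adjusted p of 0.00086, a level 1.88-fold lower than in controls. Gls2, which supplies ammonia from glutamine, also read lower than controls at every dose. Its frozen libraries read 157, 148, 185 and 165 CPM in controls, 126, 128, 115 and 126 CPM at 1500 ppm, 83.1, 71.2, 107 and 114 CPM at 3000 ppm and 109, 71.5, 72.2 and 95.8 CPM at 6000 ppm. All 12 treated libraries lay below the lowest control, and the 2 upper doses overlapped. The Gls2 difference was -0.80 ± 0.15 (SE) on the log2 scale with an adjusted p of 0.0027 at 3000 ppm and -0.91 ± 0.16 (SE) on the log2 scale with an adjusted p of 0.0011 at 6000 ppm.

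Of the cytosolic steps, Asl and Ass1 were lower at the 2 upper doses. Asl read 95.1, 84.9, 75.2 and 118 CPM at 6000 ppm, against 149, 166, 156 and 176 CPM in controls. The groups did not overlap, and the 4 libraries at 3000 ppm, 80.9 to 127 CPM, also lay below all controls. The Asl difference was -0.62 ± 0.15 (SE) on the log2 scale with an adjusted p of 0.013 at 3000 ppm and -0.79 ± 0.15 (SE) on the log2 scale with an adjusted p of 0.0031 at 6000 ppm. Ass1 read 955, 762, 655 and 1024 CPM at 6000 ppm, against 1351, 1495, 1857 and 1066 CPM in controls. Here the controls spread widely, and the lowest of them lay close above the highest treated library. The Ass1 difference was -0.73 ± 0.18 (SE) on the log2 scale with an adjusted p of 0.013 at 3000 ppm and -0.76 ± 0.18 (SE) on the log2 scale with an adjusted p of 0.011 at 6000 ppm. Otc, the mitochondrial step between Cps1 and Ass1, differed from controls by 0.02 ± 0.11 (SE) on the log2 scale at 3000 ppm and was called at the top dose only. It read 332, 276, 328 and 342 CPM at 6000 ppm, against 475, 425, 455 and 415 CPM in controls. All 4 treated libraries were below every control, with a difference of -0.47 ± 0.11 (SE) on the log2 scale with an adjusted p of 0.0092. Whether the Otc effect differed between doses was not tested.

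Arg1 of the last step, Nags and the carrier Slc25a15 were not called at 6000 ppm. Arg1 read 576, 756, 714 and 771 CPM at 6000 ppm, against 588, 676, 680.1 and 586 CPM in controls. The groups overlapped, and the difference was 0.15 ± 0.13 (SE) on the log2 scale with an adjusted p of 0.49. Nags was called lower at 3000 ppm, at 29.3, 15.7, 25.3 and 24.5 CPM against 29.8, 38.6, 34.4 and 32.6 CPM in controls, a difference of -0.52 ± 0.15 (SE) on the log2 scale with an adjusted p of 0.025. At 6000 ppm its range of 27.8 to 34.5 CPM overlapped the controls, with a difference of -0.16 ± 0.15 (SE) and an adjusted p of 0.55. Slc25a15, the ornithine carrier, read 289, 214, 245 and 255 CPM at 6000 ppm, against 298, 232, 347 and 334 CPM in controls. Its groups overlapped, with a difference of -0.27 ± 0.14 (SE) and an adjusted p of 0.22.

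At 1500 ppm edgeR called 0 of the 8 genes, where 6.48% of all genes were called. An unadjusted p under 0.05 was seen in 2 of the 8 and in 2878 of all 13802 genes, and DESeq2 called 1 of the 8. All 4 treated libraries were nevertheless below every control in 3 of the 8 genes, Cps1, Asl and Gls2, as in 5.47% of all genes. At 3000 ppm 5 genes were called lower (Cps1, Ass1, Asl, Nags and Gls2), where 6.48% of all genes were. In these 5 genes all treated libraries lay below every control, as in 9.05% of all genes. At 6000 ppm all treated libraries lay below every control in the 5 called genes and in 8.04% of all genes. A trend fitted over the 4 doses was called lower in 4 genes, where 1.19% of all genes were. The slope, given as the change from 0 to 6000 ppm, was -0.83 ± 0.16 (SE) on the log2 scale with an adjusted p of 0.011 in Cps1 and -0.89 ± 0.17 (SE) on the log2 scale with an adjusted p of 0.011 in Gls2. In Asl it was -0.78 ± 0.15 (SE) on the log2 scale with an adjusted p of 0.013, and in Ass1 -0.82 ± 0.19 (SE) on the log2 scale with an adjusted p of 0.033. Without the 6000 ppm library of animal 44A none of these 4 trends passed, with adjusted p-values of 0.0502 in Cps1, Asl and Gls2 and 0.097 in Ass1. The Ass1 trend was also lost without 64C at 6000 ppm (adjusted p 0.077) or without control 32A, 45C or 63A (adjusted p 0.074, 0.073 and 0.11). Without control 63A the 3000 ppm calls of Cps1, Ass1 and Nags were lost, with adjusted p-values of 0.072, 0.0519 and 0.062. The Cps1 call was also lost without 71A (adjusted p 0.0587), and the Nags call without control 45C (0.072), without 9A (0.0529) or in a fit of only the 2 groups compared (0.081).

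**Figure D2:**
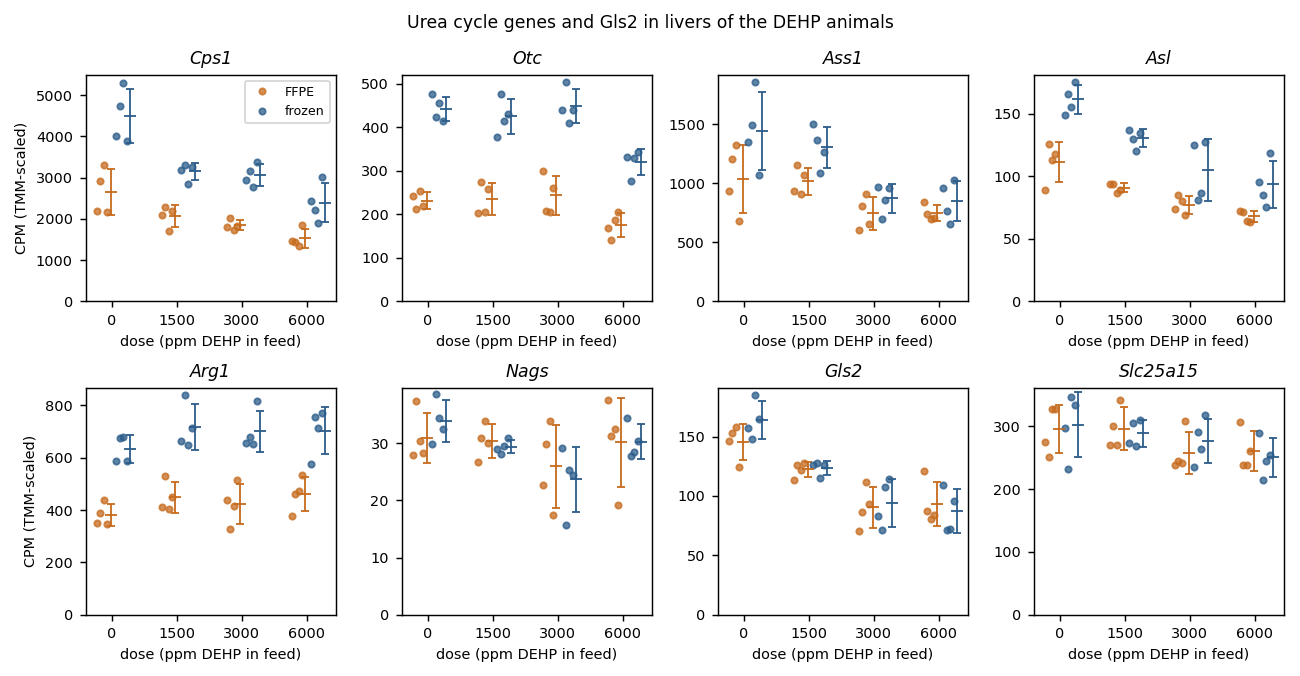
TMM-scaled CPM of each gene in the DEHP animals by dose (evenly spaced), with 1 point per library and the mean ± SD (n = 4) beside each group, FFPE left of frozen. Cps1, Asl and Gls2 are lower at 6000 ppm than in controls in both preparations, with Gls2 in FFPE at about one level at the 2 upper doses, and the Arg1 groups overlap.

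Sequencing run, read from the column names, was spread unevenly over the doses. The 4 frozen control libraries belonged to run H36399 or run H36451, and of the treated frozen libraries only 35A (3000 ppm), 72B (1500 ppm) and 8C (6000 ppm) shared a run with controls. Within run H36451, Cps1 read 3013 CPM in 8C, against 4731 and 5302 CPM in controls 45C and 63A. Within the same run Gls2 read 95.8 CPM in 8C, against 148 and 185 CPM in 45C and 63A. Both genes were lower within the run, where each group had 1 or 2 libraries and no test was made. With run as a term in the model, Cps1 at 6000 ppm differed by -0.87 with an adjusted p of 0.014 and Gls2 by -0.94 with an adjusted p of 0.017. Otc, Ass1 and Asl then had differences of -0.44, -0.70 and -0.57, with adjusted p-values of 0.13, 0.11 and 0.11 in the same test, and were no longer called. At 3000 ppm the run term left Cps1 at -0.45, Ass1 at -0.54, Asl at -0.43, Nags at -0.33 and Gls2 at -0.77, none called (adjusted p 0.0586 in Gls2 and 0.21 or more in the others). All 4 trends over doses were lost with the run term, at adjusted p-values of 0.21 in Cps1, 0.23 in Gls2, 0.27 in Asl and 0.29 in Ass1.

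Ass1 counts depend on how reads shared with a near copy are assigned. GENCODE lists a processed pseudogene, Gm5424, at chr10:62071123-62072362 of GRCm38 on the plus strand, whose 1240 bases align to the Ass1 transcript of 1696 bases with 1234 identical (99.5%). The tables used here hold no Gm5424 row. A second set of deposited count tables does, and there the Ass1 row held a median of 17.3% (15.4% to 21.8%) of the Ass1 count used here in the 24 DCA frozen libraries, while Ass1 and Gm5424 together held 101% (101% to 103%). In 15 DEHP frozen libraries of the second table (animal 40A is not used there), Ass1 held 13.4% (9.96% to 29.0%) and the sum held 33.8% (29.6% to 34.9%). The split between the 2 rows was uneven, with 4923 counts on Ass1 and 260 on Gm5424 in animal 67C, against 7119 and 9140 in control 63A. From the Ass1 row alone of the second table, the DEHP difference in frozen liver was -0.13 at 3000 ppm (adjusted p 0.76) and -0.49 at 6000 ppm (adjusted p 0.23), neither called, and the trend had an adjusted p of 0.30. With the 2 rows summed, an alternative chosen after the tables were compared, it was -0.79 ± 0.19 at 3000 ppm (adjusted p 0.011) and -0.75 ± 0.19 at 6000 ppm (adjusted p 0.016). In DCA liver the Ass1 count used here was thus close to the sum of both rows, and in DEHP liver it was larger than that sum. These shares compare raw counts, not scaled for the totals of the 2 tables. They cannot tell a gap in Ass1 alone from a gap between whole tables. The uneven split between the 2 rows leaves Ass1 values uncertain.

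In FFPE tissue of the same DEHP animals at 6000 ppm, Cps1, Asl and Gls2 were lower, where 4.43% of the 13581 genes tested were called lower, and no member was higher. Cps1 read 1468, 1429, 1341 and 1855 CPM at 6000 ppm, against 2200.1, 2911, 3296 and 2167 CPM in controls. All 4 treated libraries lay below all controls, with a difference of -0.80 ± 0.16 (SE) on the log2 scale with an adjusted p of 0.0044. Asl read 72.2, 71.5, 64.5 and 63.7 CPM at 6000 ppm, against 89.1, 126, 113 and 118 CPM in controls, and the groups were again apart. Its difference was -0.71 ± 0.11 (SE) on the log2 scale with an adjusted p of 0.00053. Gls2 read 121, 87.4, 80.4 and 83.9 CPM at 6000 ppm, against 147, 153, 158 and 124 CPM in controls. The highest treated library, 29B, came close below the lowest control, and the difference was -0.64 ± 0.15 (SE) on the log2 scale with an adjusted p of 0.0096. The groups did not overlap in these 3 genes and in Otc, as in 5.99% of all genes, where all treated libraries lay below every control. Otc at -0.39 ± 0.15 (SE, adjusted p 0.1) and Ass1 at -0.47 ± 0.19 (SE, adjusted p 0.11) were not called. Arg1 at 0.28 ± 0.15, Nags at -0.04 ± 0.20 and Slc25a15 at -0.18 ± 0.14 (SE, log2 scale) were not called either.

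At the lower doses in FFPE tissue Asl and Gls2 were called at 3000 ppm, where 3.24% of all genes were called lower. Asl differed from controls by -0.53 ± 0.11 (SE) on the log2 scale with an adjusted p of 0.0059, and Gls2 by -0.68 ± 0.15 (SE) on the log2 scale with an adjusted p of 0.0073. Cps1 at 3000 ppm, at -0.52 ± 0.16 (SE), had an adjusted p of 0.057. DESeq2 called it lower (adjusted p 0.0094), as did edgeR without control 32A or 75A (0.031 and 0.035), and without 75A edgeR also called Ass1 (0.028). At 1500 ppm edgeR called 0 of the 8, where 5.86% of all genes were called. Here 2 of the 8 and 2646 of the 13581 genes tested had an unadjusted p under 0.05, and DESeq2 called 0 of the 8. The trend over doses was called lower in 3 genes, where 1.44% of all genes were: Cps1 at -0.76 ± 0.16 (SE, adjusted p 0.019), Asl at -0.69 ± 0.11 (SE, adjusted p 0.006) and Gls2 at -0.65 ± 0.16 (SE, adjusted p 0.034). The trend of Cps1 was lost without control 63A or without either 44A or 64C at 6000 ppm, and that of Gls2 without any 1 of 7 of the 8 libraries at the 2 end doses. With run as a term the calls of Cps1, Asl and Gls2 at 6000 ppm all passed, at -0.83 (adjusted p 0.0069), -0.72 (adjusted p 0.00068) and -0.67 (adjusted p 0.0072).

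Levels of 5 members also differed between preparations. In controls of the DEHP study, compared within each animal, Otc, Cps1, Arg1, Asl and Ass1 were lower in FFPE than in frozen tissue, where 16.7% of the 14065 genes tested were. Otc, the most affected, averaged 238 ± 21.5 CPM in FFPE and 426 ± 29.7 CPM in frozen tissue (SD, n = 4 each), on a scale common to both. The FFPE value was 0.556 of the frozen value by the median animal (0.526 to 0.590), and the difference was -0.84 ± 0.09 (SE) on the log2 scale with an adjusted p of 4.0e-06. Cps1 had a median FFPE-to-frozen ratio of 0.620 (0.591 to 0.661) and a difference of -0.68 ± 0.07 (SE) on the log2 scale with an adjusted p of 1.4e-06. Arg1 had a ratio of 0.636 and a difference of -0.65 ± 0.07 (SE) on the log2 scale with an adjusted p of 6.8e-06. In all 4 animals these 3 genes, and Asl and Ass1 as well, were lower in FFPE tissue. Asl at a ratio of 0.744 (adjusted p 0.011) and Ass1 at 0.752 (adjusted p 0.021) were also called. The Asl call was lost without animal 32A (adjusted p 0.067). The Ass1 call was lost without 32A, 63A or 75A (adjusted p 0.069, 0.0585 and 0.11) and without the animal block (adjusted p 0.15). The other three, Nags at 0.975, Gls2 at 0.956 and Slc25a15 at 1.03, had ratios near 1 and were not called. FFPE blocks held named lobes and frozen pieces mixed lobes, so lobe and fixation cannot be told apart.

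**Figure D3:**
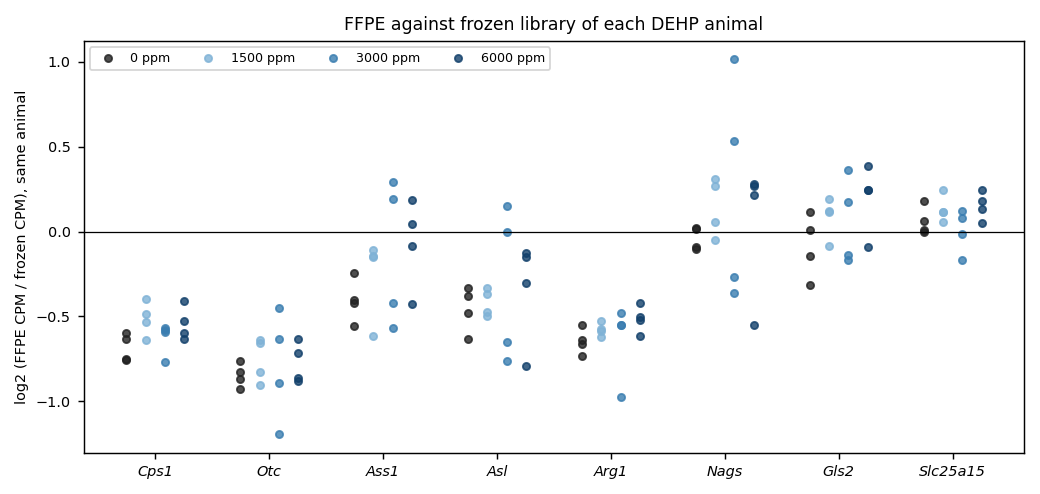
Log2 ratio of FFPE to frozen CPM for each gene, with 1 point per DEHP animal and the doses in order from 0 to 6000 ppm. Otc, Cps1 and Arg1 lie below 0 in every animal, while Slc25a15 and Gls2 lie around 0.

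The size of the DEHP effect was also compared between preparations. For the effect of 6000 ppm in FFPE minus that in frozen tissue, edgeR called 0 of the 8 genes and 0% of all 14065 genes; 0 of the 8 and 254 of all genes had an unadjusted p under 0.05, and DESeq2 called 0 of the 8. The difference was 0.14 ± 0.09 (SE) on the log2 scale in Cps1, 0.07 ± 0.13 in Otc, 0.11 ± 0.18 in Asl and 0.13 ± 0.11 in Arg1. It was 0.34 ± 0.18 in Ass1, 0.28 ± 0.14 in Gls2, 0.10 ± 0.24 in Nags and 0.09 ± 0.09 in Slc25a15. All 8 were above 0, where the median over all genes was 0.03, and no single difference passed the test.

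Cps1 and Otc, the mitochondrial synthesis steps, were lower than in controls in frozen liver at the 2 upper DCA doses. Sequencing lane, given below, cannot be told apart from dose there. At 3.5 g/L Cps1, Otc, Ass1 and Nags were called lower, where 21.1% of the 13089 genes tested were. Slc25a15 was called higher, where 21.9% of all genes were. With 43% of all genes called in either direction at this dose, 5 of 8 is a share not far above the background. The median log2 fold change was -0.23 over the 8 genes and -0.02 over all genes.

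Cps1 had its lowest, median and highest library at 7394, 8319 and 9481 CPM in DCA controls, 6319, 7214 and 7583 CPM at 1 g/L, 3794, 4816 and 6001 CPM at 2 g/L and 4781, 5627 and 6263 CPM at 3.5 g/L. The 2 upper doses lay wholly below the controls, and the lowest values were at 2 g/L. The difference from controls was -0.22 ± 0.09 (SE, adjusted p 0.14) at 1 g/L, -0.77 ± 0.10 (SE) on the log2 scale with an adjusted p of 1.6e-06 at 2 g/L and -0.56 ± 0.09 (SE) on the log2 scale with an adjusted p of 3.9e-05 at 3.5 g/L. Otc stood at 335, 372 and 386 CPM in controls, 334, 376 and 399 CPM at 1 g/L, 184, 229 and 287 CPM at 2 g/L and 220.5, 271 and 288 CPM at 3.5 g/L. As in Cps1, controls and 1 g/L overlapped and the upper doses were apart from both. All treated libraries lay below every control in these 2 members at 2 g/L, as in 5.17% of all genes, and at 3.5 g/L, as in 9.42%. The Otc difference was -0.66 ± 0.10 (SE) on the log2 scale with an adjusted p of 1.7e-05 at 2 g/L and -0.46 ± 0.10 (SE) on the log2 scale with an adjusted p of 0.0005 at 3.5 g/L.

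Slc25a15 went the other way. Its lowest, median and highest library were 502.8, 563 and 616 CPM at 3.5 g/L, against 426, 448 and 512 CPM in controls. In 5 of the 6 treated livers it was above every control, with a difference of 0.28 ± 0.06 (SE) on the log2 scale with an adjusted p of 0.00062. Ass1 stood at 1822, 2068 and 2368 CPM at 3.5 g/L, against 2038, 2614 and 3102 CPM in controls, and the groups overlapped, with a difference of -0.32 ± 0.12 (SE) on the log2 scale with an adjusted p of 0.03. Nags stood at 33.9, 38.5 and 48.4 CPM at 3.5 g/L, against 37.1, 50.0 and 56.6 CPM in controls, also overlapping, with a difference of -0.31 ± 0.11 (SE) on the log2 scale with an adjusted p of 0.03. Each of these 2 calls was lost when any 1 of 5 libraries was left out, with an adjusted p of at most 0.083. Asl at -0.15 ± 0.10 (SE, adjusted p 0.27), Arg1 at 0.11 ± 0.08 and Gls2 at 0.06 ± 0.12 (SE, log2 scale) were not called at the top dose. The trend over doses was called lower in Cps1 (-0.62 ± 0.13, adjusted p 0.00038), Otc (-0.58 ± 0.14, adjusted p 0.0013) and Ass1 (-0.35 ± 0.12, adjusted p 0.022), where 18.8% of all genes were. It was called higher in Slc25a15 (0.26 ± 0.07, adjusted p 0.0056), where 20.5% of all genes were. Without control animal 7 the trend of Ass1 had an adjusted p of 0.056. The trend of Nags (-0.27 ± 0.11) was not called, at an adjusted p of 0.0594, but was called in 11 of 33 alternative fits, among them DESeq2 (0.044) and the fit with run as a term (0.039).

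At 1 g/L only Asl was called, at 158, 181 and 203 CPM against 192, 234 and 261 CPM in controls, where 7.01% of all genes were called lower. Its groups overlapped, the difference was -0.35 ± 0.10 (SE) on the log2 scale with an adjusted p of 0.034, and the call was lost without any 1 of 6 libraries. With run as a term Asl differed by -0.28 with an adjusted p of 0.16. At 2 g/L Cps1, Otc, Ass1, Asl and Gls2 were called lower, where 13.7% of all genes were. The 6 libraries at 2 g/L fell into 2 lanes that differed in depth, with 3067666 to 3854949 counts in lane L3 (animals 73, 74 and 75) and 13120816 to 15660753 counts in lane L4. Otc read 184 to 192 CPM in lane L3 and 266 to 287 CPM in lane L4. Ass1 read 1523 to 1615 CPM in lane L3 and 2133 to 2479.9 CPM in lane L4, and Gls2 115 to 138 CPM in lane L3 and 171 to 216 CPM in lane L4. Lane L3 lay below lane L4 without overlap in these 3 genes and in Asl, Arg1, Slc25a15 and Nags as well, that is in 7 of the 8 members, and the lanes overlapped in Cps1 (3794 to 4890 CPM in lane L3 and 4742 to 6001 CPM in lane L4). The 6 hepatocyte markers (Alb, Apoa1, Ttr, Apoa2, Serpina1c and Fgb) summed to 55581 to 64559 CPM in lane L3 and 70531 to 87217 CPM in lane L4, and their part in the result was not tested. Without lane L3, an alternative chosen after the data were seen, Cps1 and Otc passed and Ass1 (-0.20, adjusted p 0.25), Asl (-0.19, adjusted p 0.22) and Gls2 (-0.09, adjusted p 0.55) did not. The Gls2 call was also lost without any 1 of animals 73, 74 and 75 (adjusted p 0.0505 to 0.058). Every control was run in lane L5 of run W48315. In the same run every 3.5 g/L library was in lane L4, and every 2 g/L library was in lane L3 or L4. Lane therefore cannot be told apart from dose at 2 or 3.5 g/L, and leaving out lane L3 does not change that. At 1 g/L only animal 49 shared lane L5 with the controls.

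**Figure D4:**
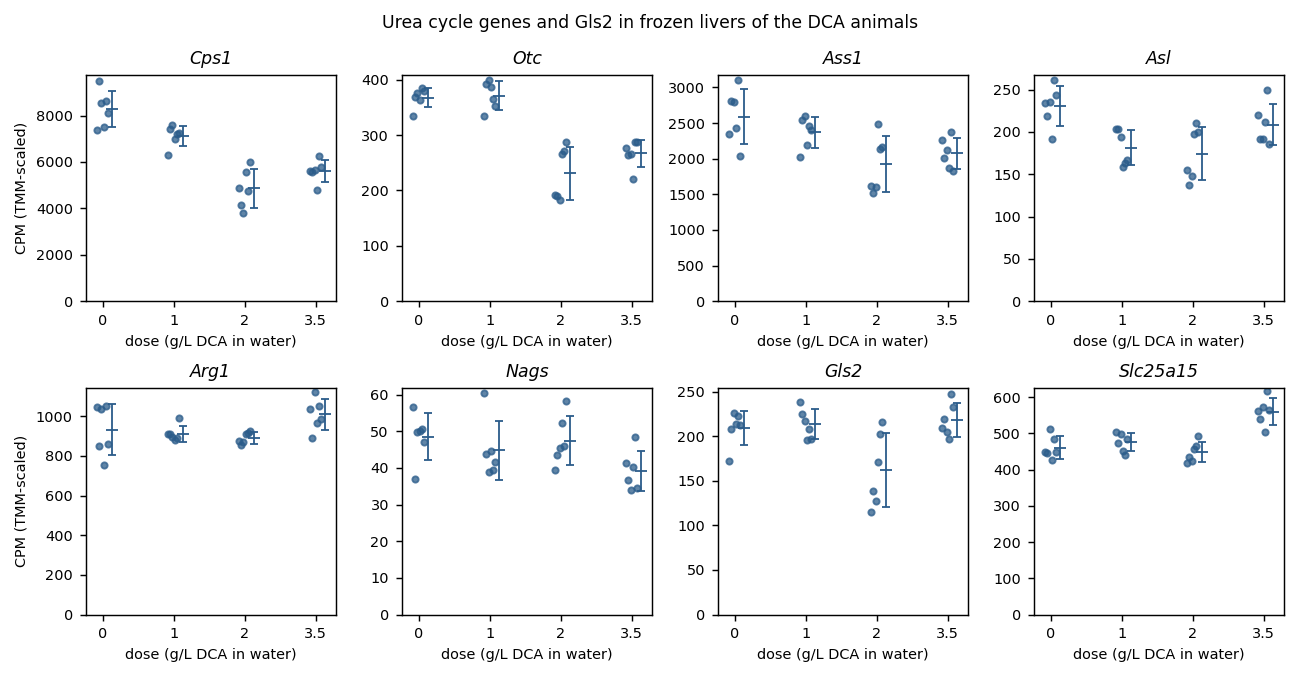
TMM-scaled CPM of each gene in frozen liver of the DCA animals by dose (evenly spaced), with 1 point per library and the mean ± SD (n = 6) beside each group. Cps1 and Otc are lowest at 2 and 3.5 g/L, Slc25a15 is highest at 3.5 g/L, and the 2 g/L libraries of Otc and Gls2 split by lane.

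In DCA FFPE tissue no member was called. At each of the 3 doses and for the trend edgeR called 0 of the 8 genes, where 0.126%, 0.335%, 0.293% and 0.356% of the 4772 genes tested were called. The members with an unadjusted p under 0.05 numbered 0, 1, 1 and 1 in the same order, and DESeq2 called 0. Over all 4772 genes such p-values numbered 64, 226, 368 and 398. Cps1 had 35 to 962 counts per library at 2 g/L and 33 to 797 counts at 3.5 g/L, against 993 to 19425 counts in controls. On the CPM scale it averaged 518 ± 269 at 3.5 g/L and 1615 ± 195 in controls (SD, n = 6 each). All 6 treated libraries lay below every control, as in 4.84% of all genes, with a difference of -1.64 ± 0.61 (SE) on the log2 scale and an adjusted p of 0.44. The median over all genes was itself -0.68 in that comparison. Otc had 0 counts in 4 of the 6 libraries at 2 g/L and in 2 of 6 at 3.5 g/L, against 2 to 512 counts in controls. The 6 controls and 3 libraries at 1 g/L were sequenced in run V18431 (1385869 to 8434613 counts) and the other 15 in run W48315 (109292 to 653006 counts). Run and the upper doses therefore cannot be told apart in this tissue. The frozen controls were all in run W48315, with 14539643 to 16890024 counts. Run and depth therefore cannot be told apart from preparation in DCA controls. Between preparations in DCA controls only Otc was called, lower in FFPE with a log2 difference of -2.46 ± 0.71 (SE) and an adjusted p of 0.037, where 1.38% of the 11526 genes tested were. This call was lost without any 1 of the 6 controls, at -2.02 with an adjusted p of 0.20 without animal 3. Cps1 read 2364 ± 417 CPM in FFPE and 6189 ± 603 CPM in frozen control tissue (SD, n = 6 each), with a difference of -1.40 ± 0.43 (SE) and an adjusted p of 0.0533. The median ratios of FFPE to frozen were 0.220 in Otc, 0.362 in Arg1, 0.378 in Cps1, 0.421 in Ass1 and 0.426 in Asl. They were 0.869 in Gls2, 0.885 in Nags and 1.03 in Slc25a15, the 3 genes also near 1 in DEHP tissue. The median log2 difference over all genes was -0.62 in this comparison and -0.003 in DEHP controls. The ratios of the 2 studies thus stand on unlike baselines. Nags read 0 CPM in the FFPE library of control animal 3. For the 3.5 g/L effect in FFPE minus frozen tissue edgeR called 0 of the 8, where 0.0607% of all genes were called, and DESeq2 called 0. There 2 of the 8 and 1304 of the 11526 genes tested had an unadjusted p under 0.05.

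Set against each other at the top doses in frozen liver, the chemicals differed in 3 members. For the effect of 6000 ppm DEHP minus the effect of 3.5 g/L DCA, 6.85% of the 13219 genes tested were called lower. Gls2 differed by -0.96 ± 0.20 (SE) on the log2 scale with an adjusted p of 0.001, where its own fold changes were -0.91 ± 0.16 with DEHP and 0.06 ± 0.12 with DCA. Asl differed by -0.63 ± 0.18 (SE) on the log2 scale with an adjusted p of 0.018, and Slc25a15, higher with DCA, by -0.54 ± 0.13 (SE) on the log2 scale with an adjusted p of 0.0054. The Asl difference had an adjusted p of 0.0503 without the 6000 ppm library of animal 64C. Cps1 at -0.34 ± 0.17, Otc at 0.01 ± 0.15, Ass1 at -0.43 ± 0.21, Arg1 at 0.05 ± 0.13 and Nags at 0.16 ± 0.18 (SE, log2 scale) had no difference past the test. The 2 chemicals differed in route, dose scale, year of collection and sequencing run, which cannot be told apart from the chemical here. No run was shared between the 2 studies, and no alternative fit of these differences held run as a term.

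**Figure D5:**
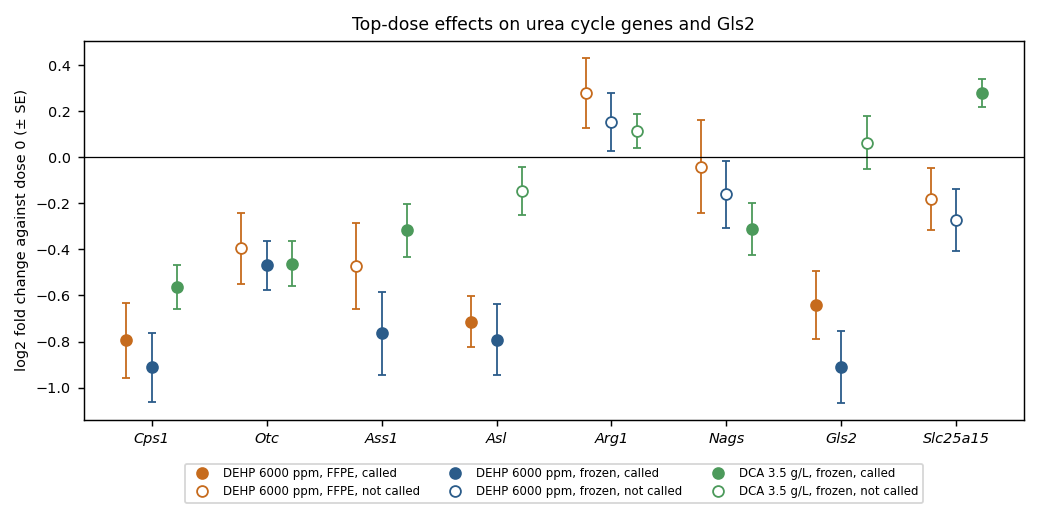
Log2 fold change (± SE) of each gene at the top dose against its controls, for DEHP at 6000 ppm in FFPE and frozen liver and DCA at 3.5 g/L in frozen liver; filled points are called. Gls2, Asl and Slc25a15 are where the DEHP and DCA points lie farthest apart.

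Genes around the cycle, in 8 lists, were counted at the top doses in frozen liver. At 6000 ppm 11.8% of all genes were called. Of 8 genes that supply nitrogen to the cycle in mitochondria 1 rose and none fell (list median 0.14): Got2, the mitochondrial aspartate aminotransferase, with log2 fold change 0.38 ± 0.11 (SE), adjusted p = 0.032. Of 8 genes that return fumarate and aspartate 2 rose (median 0.29), Got2 again and the malate dehydrogenase Mdh2, with log2 fold change 0.64 ± 0.15 (SE), adjusted p = 0.01. Of 21 amino acid breakdown genes 3 fell and none rose (median -0.11). Prodh, proline dehydrogenase, averaged 36.7 ± 11.8 CPM at 6000 ppm and 79.2 ± 12.3 CPM in controls (SD, n = 4 each), with log2 fold change -1.11 ± 0.18 (SE), adjusted p = 0.00087. The histidine breakdown genes Hal (log2 fold change -1.03 ± 0.18 (SE), adjusted p = 0.0015) and Amdhd1 (log2 fold change -0.84 ± 0.16 (SE), adjusted p = 0.0021) fell with it. Of 11 other genes of glutaminase, arginase and arginine use 2 rose (median 0.05): Ddah1, which breaks down methylated arginines, with log2 fold change 1.16 ± 0.25 (SE), adjusted p = 0.0063, and Odc1, ornithine decarboxylase, with log2 fold change 0.56 ± 0.15 (SE), adjusted p = 0.022. Of 5 genes of glutamine synthesis and pericentral nitrogen edgeR called 0. Of 11 amino acid transporters 1 fell, the glutamine transporter Slc38a3 (log2 fold change -0.43 ± 0.13 (SE), adjusted p = 0.0419). Of 15 transcription factors and receptors known to act on urea cycle genes 1 fell, Crebzf (log2 fold change -0.36 ± 0.10 (SE), adjusted p = 0.027), and of 9 further periportal hepatocyte markers 1 fell, Hal.

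Under DCA at 3.5 g/L, where 43% of all genes were called, genes of most lists moved in both directions. Of 8 nitrogen supply genes 4 rose and 1 fell (median 0.13), led by the aspartate-glutamate carrier Slc25a13 (log2 fold change 0.45 ± 0.06 (SE), adjusted p = 3.4e-06), Got2 (log2 fold change 0.28 ± 0.05 (SE), adjusted p = 7.0e-05) and the glutamate carrier Slc25a22 (log2 fold change 0.77 ± 0.16 (SE), adjusted p = 0.00032). Of 8 genes of fumarate and aspartate return 4 rose and 1 fell (median 0.19), among them fumarase Fh1 (log2 fold change 0.28 ± 0.08 (SE), adjusted p = 0.0059) and Adss (log2 fold change 0.47 ± 0.08 (SE), adjusted p = 6.3e-05). Of 21 amino acid breakdown genes 10 fell and 1 rose (median -0.24). Prodh fell here too (log2 fold change -1.09 ± 0.14 (SE), adjusted p = 8.3e-07), with the histidine breakdown gene Uroc1 (log2 fold change -0.47 ± 0.08 (SE), adjusted p = 6.1e-05) and Prodh2 (log2 fold change -0.82 ± 0.15 (SE), adjusted p = 0.00014). Of 5 genes of glutamine synthesis and pericentral nitrogen 2 fell, the ammonium transporter Rhbg (log2 fold change -0.76 ± 0.14 (SE), adjusted p = 7.6e-05) and the glutamate transporter Slc1a2 (log2 fold change -0.40 ± 0.09 (SE), adjusted p = 0.00066). Of 11 other genes of glutaminase, arginase and arginine use 2 rose and 3 fell, with Azin1 (log2 fold change 0.40 ± 0.07 (SE), adjusted p = 8.5e-05), Ddah1 (log2 fold change 0.70 ± 0.13 (SE), adjusted p = 0.00012) and Gatm (log2 fold change -0.46 ± 0.09 (SE), adjusted p = 0.0003) called most firmly.

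Of 11 amino acid transporters 4 rose and 4 fell at 3.5 g/L DCA, with Slc7a8 (log2 fold change -0.83 ± 0.13 (SE), adjusted p = 2.1e-05), Slc43a1 (log2 fold change -0.95 ± 0.15 (SE), adjusted p = 2.5e-05) and Slc3a1 (log2 fold change -1.08 ± 0.19 (SE), adjusted p = 4.9e-05) falling at the smallest p. Of 15 transcription factors and receptors 7 fell and 1 rose (median -0.19). The glucagon receptor Gcgr, through which glucagon raises urea cycle enzymes, fell (log2 fold change -0.62 ± 0.12 (SE), adjusted p = 0.00027), with the coactivator Ppargc1a (log2 fold change -0.87 ± 0.22 (SE), adjusted p = 0.0025) and Foxa2 (log2 fold change -0.90 ± 0.27 (SE), adjusted p = 0.0086). Of 10 further periportal markers 3 rose and 4 fell (median -0.24), so the list was split. Of all genes at this dose 21.9% were called higher and 21.1% lower. The 3 markers of smallest p all fell, and the 3 that rose are counted only. Cdh1 led (log2 fold change -0.62 ± 0.08 (SE), adjusted p = 1.7e-06). Pck1, the rate-limiting gluconeogenic enzyme, was next (log2 fold change -1.16 ± 0.18 (SE), adjusted p = 1.2e-05). Then came Cyp2f2 (log2 fold change -0.42 ± 0.08 (SE), adjusted p = 7.3e-05).

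Summed hepatocyte markers were lower than in controls at both top doses in frozen liver. The 6 markers named above summed to 46814, 59453 and 59749 CPM (lowest, median and highest) at 6000 ppm DEHP, against 62484, 66543 and 77391 CPM in controls. They summed to 64526, 73063 and 82871 CPM at 3.5 g/L DCA, against 84843, 99334 and 106525 CPM in controls. In both studies the livers at the top dose lay below all controls. With DEHP 3 of the 6 were called lower and none higher, where 4.72% of all genes were called lower. With DCA 4 were called lower and 1 (Apoa2) higher, where 21.1% and 21.9% of all genes were. At 1500 ppm DEHP in frozen liver the sum, 56634 to 70412 CPM, overlapped the controls. In DEHP FFPE liver the sum at 6000 ppm, 32900 to 37653 CPM, overlapped its controls at 33541 to 42149 CPM. None of the 6 was at 0 in any group, and their part in the members' results was not tested.

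The genes most like Cps1 were ranked by Pearson's r of log2 CPM over the frozen libraries of each study, a description in which libraries share dose groups and depth. Over the 16 DEHP libraries they were Gpld1 (r = 0.903), Slc37a4 (0.871), Tpst1 (0.869) and Ces1c (0.869). Among the members Asl (0.835), Gls2 (0.821) and Ass1 (0.80) came closest, then Otc (0.675) and Slc25a15 (0.534), with Nags at 0.275 and Arg1 at -0.129. Over the 24 DCA libraries the 4 genes were Apoh (0.954), Amy1 (0.954), Dpyd (0.944) and Ces1c (0.940). Otc (0.929) and Ass1 (0.836) were the closest members there, with Gls2 at 0.593, Asl at 0.548, Nags at 0.141, Arg1 at 0.0585 and Slc25a15 at 0.00827. Ces1c, a liver carboxylesterase, was among the 4 in both studies.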

How the data were processed

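Liver RNA was sequenced as stranded total RNA after ribosomal RNA removal, per the labels' protocols. The authors deposited RSEM expected counts per gene and FPKM; per the submitters' processing notes the tools were CASAVA, STAR 2.4 and RSEM and the build mm10, with no annotation given in the sources used here. The deposited expected counts were rounded. The authors' FPKM served only to compare levels between genes. Genes were filtered with filterByExpr (minimum count 10) and scaled by TMM in edgeR 4.0.16 (R 4.3.3). The quasi-likelihood test was fitted to each chemical and preparation separately, over 4 dose groups and as a dose trend. FFPE and frozen libraries were compared with the animal as a block and a preparation by dose term, and DEHP with DCA in 1 fit of 8 frozen groups. All adjusted p-values are Benjamini-Hochberg values over all genes tested, called under 0.05; standard errors are the log2 fold change over the root of F. DESeq2 1.42.0, size factors, no filter, run as a term, a fold minimum of 1.5, a second set of deposited expected counts and each library left out were alternatives. The shallowest library was a DCA FFPE library.

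Samples were grouped by their labels, and pairing rests on the shared animal number. In DEHP livers 13 of 16 frozen libraries correlated best with the FFPE library of the same animal (median r 0.465 of deviations from group means over 13445 genes); animals 35A (own r 0.0719) and 67C (own r 0.0952) at 3000 ppm and 64C at 6000 ppm did not. In DCA livers 13 of 24 did (median r 0.0378). The scripts were tested on simulated data.

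The members and the gene lists were chosen with earlier results of these data known. Named with values are all 8 members, at most 3 called genes of smallest p per list and chemical, and the 4 genes most like Cps1 in each frozen set; Gm5424, Spryd4, Rn45s and the marker genes were named after their values were seen. Marker lists covered kidney tubule, exocrine pancreas, intestinal epithelium, bile duct, red blood cells, hepatocytes, endothelium, Kupffer cells and stellate cells.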

Additional observations from a re-analysis of the deposited data

Results flagged for a closer look

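In 9 of the 128 combinations of gene and group checked, 1 library stood apart from the rest of its group; chance does this in about 1 in 20 groups. In frozen DCA liver these were Otc in animal 97 at 3.5 g/L with 220.5 CPM (others 264 to 288), Arg1 in animal 54 at 1 g/L with 990.1 CPM (others 879 to 911), Nags in animal 49 at 1 g/L with 60.5 CPM (others 38.8 to 44.5) and Gls2 in control animal 3 with 172 CPM (others 208 to 226). In DCA FFPE liver they were Cps1 in control animal 4 with 1980.2 CPM (others 1400.0 to 1606), Asl in control animal 3 with 164 CPM (others 28.1 to 56.9) and Nags in animal 98 at 3.5 g/L with 54.4 CPM (others 0 to 9.91). In DEHP liver they were Gls2 in frozen animal 60A at 1500 ppm with 115 CPM (others 126 to 128) and Slc25a15 in FFPE animal 9A at 3000 ppm with 308 CPM (others 238 to 245).

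The effects of 6000 ppm DEHP and 3.5 g/L DCA in frozen liver differed by edgeR's test of the difference itself, DEHP minus DCA on the log2 scale, in Asl by -0.63, in Gls2 by -0.96 and in Slc25a15 by -0.54. For each of the 3, the first minus the second effect is below 0.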

How the results depend on the processing

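Of 3303 alternative fits to single members, 3182 had the same side of the threshold, 96 lost a call and 25 gained one. None of the called values changed sign, while 107 of 2395 fits to values that were not called had the other sign. Counts of members called that moved by over 1.5 times follow. With run as a term, DEHP frozen gave 0 at 3000 ppm (against 5), 2 at 6000 ppm (against 5) and 0 for the trend (against 4), and DCA frozen 0 at 1 g/L (against 1), as did run W48315 alone or no filter. A fold minimum of 1.5 gave 3 at DEHP frozen 3000 ppm, 1 at DEHP FFPE 3000 ppm, and in DCA frozen 0 at 1 g/L, 2 at 2 g/L, 0 at 3.5 g/L and 1 for the trend. Without lane L3, DCA frozen 2 g/L gave 2. DESeq2 gave 1 at DEHP frozen 1500 ppm. No filter gave 1 for the DCA FFPE trend, Cps1 at -1.77 (adjusted p 0.036). DCA FFPE against frozen gave 0 with size factors and 2 with DESeq2, without Rn45s or without the replicate block (against 1). DEHP FFPE against frozen gave 4 without the block (against 5), where Ass1 lost its call, and the block changed no call in the preparation by dose terms. The causes were not tested.

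Leaving out 1 library at a time, the count ran over 0 to 1 at DEHP frozen 1500 ppm, 2 to 5 at 3000 ppm, 5 at 6000 ppm and 0 to 5 for the trend. In DEHP FFPE it ran over 0 to 1, 2 to 4, 3 to 4 and 1 to 3. In DCA frozen it ran over 0 to 1, 4 to 5, 3 to 5 and 3 to 5, and in DCA FFPE it was 0. It ran over 3 to 5 for DEHP FFPE against frozen, 2 to 3 for DEHP against DCA, and was 0 for DCA FFPE against frozen. In DCA FFPE the median over all genes at 1 g/L was -0.27 with TMM and 0.14 with size factors.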

Other observations

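Other cell types' markers were counted in frozen liver at the top doses, outside the comparisons above. Of all genes, 21.1% were called lower and 21.9% higher at 3.5 g/L DCA, and 11.8% in either direction at 6000 ppm DEHP. At 3.5 g/L DCA, Kupffer cell markers summed to 129, 177 and 194 CPM (lowest, median and highest), against 227, 249.8 and 314 CPM in controls, and 5 of 7 tested fell, among them Clec4f (log2 fold change -0.65 ± 0.11, SE) and Csf1r (-0.55 ± 0.12). At 6000 ppm DEHP the same markers summed to 194, 238 and 299 CPM, against 149, 181 and 246 CPM in controls, and edgeR called 0 of 7. Of 6 stellate cell markers 5 fell with DCA and 1, Col3a1, rose with DEHP. Of 6 endothelial markers 2 fell with DCA, not far above the share of all genes, and 1, Oit3, rose with DEHP. Of the bile duct markers edgeR called 0 of 4 with DCA and 0 of 3 with DEHP. Of the exocrine pancreas list 1 gene passed the filter, Cela1, and fell with both chemicals. Of 2 red blood cell markers tested both fell with DCA and 0 were called with DEHP. Of the intestinal list 1 gene was tested, Fabp2, which rose with DEHP by 1.01 ± 0.23 (SE) on the log2 scale. Kidney tubule markers summed to at most 2.76 CPM in any frozen library at the top dose or in controls.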
